A study of Arabidopsis thaliana with 24 samples.

Results

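Light-grown and dark-grown seedlings of the csn5 line (csn5a-2 csn5b) of Arabidopsis thaliana were compared on whole-genome Affymetrix arrays, using the 6 arrays of 24 whose labels give that genotype, 3 from light and 3 from darkness. All seedlings were 7 days old when RNA was taken from them. The other lines were csn3-1, csn4-1 and Col wild type (WT), each also grown in light and in darkness with 3 arrays a group, and the series' design text calls the 3 arrays of a group independent biological replicates. The csn5 label names alleles of both genes for that subunit, and no label gives more on how the line was made. The comparisons below are csn5 light against csn5 dark, the same contrast in csn3, csn4 and WT, and the test of whether the contrast in csn5 differs from that in WT.

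The COP9 signalosome is a nuclear protein complex that takes the ubiquitin-like tag NEDD8 off cullins, the scaffolds of a large class of ubiquitin ligases, and CSN5 is its catalytic subunit. Mutants of the complex look light-grown when raised in the dark, with open cotyledons, short hypocotyls and expressed photosynthesis genes. Light normally turns a pale, elongated seedling that lives on its reserves into a green one that makes sugar, and the contrast of light with darkness within the mutant asks what light still changes there.

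Signals are on a linear scale with every array scaled to a trimmed mean of 500. Log2 differences are light minus dark of log2(signal + 50), followed by the standard error of the limma fit over all 24 arrays. A probe set is called when its adjusted p is under 0.05 and its log2 difference reaches 1 in size, and every adjusted p is limma's after Benjamini-Hochberg adjustment over 18751 tested probe sets. The offset of 50 makes differences of dim probe sets smaller than the ratio of their signals.

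CSN5B was the only signalosome subunit among the named probe sets that were tested. Its signal was 895, 869 and 651 in csn5-labelled light arrays and 1790.2, 1897 and 1573 in csn5-labelled dark arrays, against 110.0, 123 and 119 in WT light and 124, 118 and 177 in WT dark. All 6 arrays of the line labelled as mutant for this gene were above all 6 WT arrays. The place of these probes on the transcript, before or after the lesions, is not given in the sources used here. The signal is therefore no check of the genotype, and the term csn5-labelled is used throughout. Within these arrays it was lower in light, with a log2 difference of -1.08 ± 0.20 (adjusted p = 0.000631), a call lost without light replicate 3 (-0.95, adjusted p = 0.00748). Correlations between arrays ran from 0.949 to 0.984 within csn5-labelled light and from 0.969 to 0.974 within csn5-labelled dark. The share of probe sets at a signal of 100 or more was 67.8% in light replicate 3 and from 61 to 62.9% in the other 5 csn5-labelled arrays. The ratio of the signals of the GAPDH transcript's 3′ and 5′ probe sets, a measure of RNA integrity that grows as RNA breaks, was 4.23, 3.31 and 4.67 in light and 4.35, 6.82 and 7.42 in dark, so dark replicates 2 and 3 had the highest values. The same ratio for actin was 46.81, 30.32 and 32.7 in light and 34.46, 39.15 and 50.23 in dark, with light replicate 1 above dark replicate 2.

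Light changed 717 probe sets in csn5-labelled seedlings, 3.82% of those tested. Of these, 458 were higher in light (2.44% of those tested) and 259 were lower (1.38%). In WT the same contrast called 3609 probe sets (19.2%), 1777 higher (9.48%) and 1832 lower (9.77%). The csn3 line had 165 calls (0.880%), 103 higher (0.549%) and 62 lower (0.331%). The csn4 line had 654 (3.49%), 399 higher (2.13%) and 255 lower (1.36%). The csn3 count was 84 and 83 without light replicates 1 and 2, and 414, 76 and 256 without dark replicates 1, 2 and 3, and the csn4 count was 1106 without light replicate 2. The calls in csn5-labelled seedlings were mostly small, with a median size of 1.24 on the log2 scale against 1.49 in WT. Log2 differences of 2 or more were reached by 24 higher and 13 lower probe sets in csn5-labelled seedlings, and by 472 higher and 388 lower ones in WT. RNA came from seedlings in bulk, so fewer cells of a type and less RNA per cell cannot be told apart in any of these differences.

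**Figure D1:**
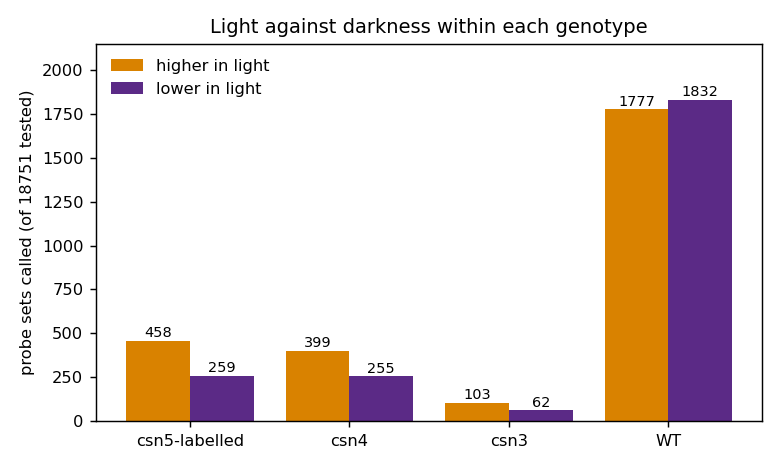
Number of probe sets called in light against darkness in each genotype, of 18751 tested; for each genotype the left bar counts those higher in light and the right bar those lower in light. The csn5-labelled bars stand at 458 and 259, and the WT bars at 1777 and 1832.

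The largest rise in light belonged to CML38, a calmodulin-like protein of the family that binds calcium. Its signal was 2063, 2023 and 1015 in csn5-labelled light arrays, against 111, 87.9 and 83.5 in csn5-labelled dark arrays. All light arrays lay far above all dark arrays, and the log2 difference was 3.54 ± 0.30 (adjusted p = 3.15e-08). In WT the signal was 283, 364 and 255 in light and 106, 110.0 and 86.7 in dark, a smaller rise of 1.21 ± 0.30, and the interaction of 2.33 ± 0.42 (adjusted p = 9.24e-05) was called, so the difference was larger in the csn5-labelled seedlings. The gene listed at AT3G10040, HYPOXIA RESPONSE ATTENUATOR1, encodes a trihelix transcription factor made when oxygen is short. It had 1289, 1204 and 961 in csn5-labelled light and 198, 95.7 and 211 in csn5-labelled dark, without overlap, a log2 difference of 2.50 ± 0.26 (adjusted p = 8.13e-07). WT rose as well, by 1.51 ± 0.26, and the interaction of 0.99 ± 0.37 (adjusted p = 0.0462) was not called. AT5G10040, a locus with no symbol here, had 2295, 1599 and 1529 in csn5-labelled light and 69.9, 111 and 205 in csn5-labelled dark. Its rise of 3.43 ± 0.39 (adjusted p = 3.1e-06) was accompanied in WT by 0.85 ± 0.39, which was not called.

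Several further loci without a symbol rose in csn5-labelled light, and WT differed among them. AT5G42200 had 1898, 1502 and 2047 in csn5-labelled light and 302, 249 and 332 in csn5-labelled dark, a log2 difference of 2.43 ± 0.21 (adjusted p = 3.94e-08), whereas WT light arrays (316, 344 and 328) all lay below WT dark arrays (459.6, 549 and 560.2). The interaction for this locus was 3.02 ± 0.30 (adjusted p = 8.71e-09). AT1G44130 likewise had 335, 306 and 386 in csn5-labelled light and 31.4, 68.4 and 44.3 in csn5-labelled dark, a difference of 2.01 ± 0.27 (adjusted p = 3.21e-05), while its WT signals stayed below 100 in both conditions. AT1G72940 rose in both genotypes. Its signals were 1074, 771 and 979 in csn5-labelled light and 204, 187 and 145 in csn5-labelled dark, against 711, 959.7 and 721 in WT light and 78.4, 139 and 89 in WT dark. The differences were 2.11 ± 0.30 (adjusted p = 5.79e-05) in csn5-labelled seedlings and 2.49 ± 0.30 (adjusted p = 1.68e-07) in WT, with an interaction of -0.37 ± 0.43 (adjusted p = 0.596). AT2G17850 rose by 2.04 ± 0.30 (adjusted p = 7.92e-05), with a WT difference of 0.97 that was not called. AT4G24110 rose by 1.91 ± 0.25 (adjusted p = 2.35e-05), and by 1.19 in WT. In all 12 genes named for the largest rises the 3 light arrays lay above the 3 dark arrays, which the choice of genes required. Over all tested probe sets this held for 19.1%, and the reverse for 16.6%.

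**Figure D2:**
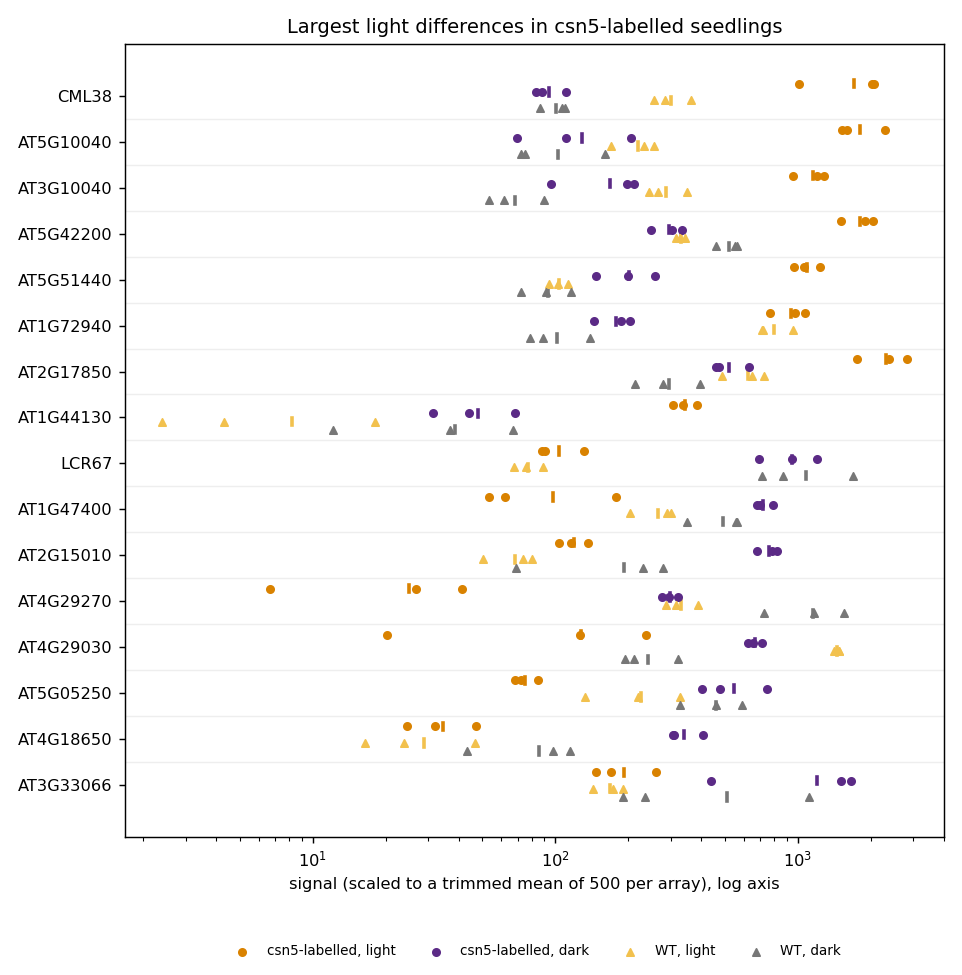
Signal per array, on a log axis, of the 8 genes with the highest log2 difference (upper rows) and the 8 with the lowest (lower rows) in csn5-labelled light against dark; points are single arrays, vertical ticks are group means, and circles are csn5-labelled and triangles WT. For CML38 the csn5-labelled light arrays reach 1015 to 2063, against 83.5 to 111 in csn5-labelled dark.

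The largest fall in light was in LCR67, also named PLANT DEFENSIN 1.1, a small secreted cysteine-rich defence protein. It had 91.1, 88.3 and 131 in csn5-labelled light and 689, 951 and 1204 in csn5-labelled dark, a log2 difference of -2.68 ± 0.40 (adjusted p = 9.94e-05). WT signals were 89.4, 75.6 and 67.4 in light and 867, 1683 and 711 in dark, so the gene fell in both genotypes, and the interaction of 0.39 ± 0.57 (adjusted p = 0.691) did not pass the test. AT4G29270 was also lower in both, with 6.7, 26.7 and 41.4 in csn5-labelled light and 294, 322 and 275 in csn5-labelled dark, and differences of -2.24 ± 0.30 there and -1.61 ± 0.30 in WT. A second kind of locus fell in csn5-labelled seedlings and not by a called amount in WT. AT1G47400 had 53.5, 61.9 and 178 in csn5-labelled light and 676, 788 and 699.8 in csn5-labelled dark, a difference of -2.48 ± 0.29 (adjusted p = 4.59e-06). Its WT difference was -0.77 ± 0.29, and the interaction was -1.71 ± 0.41 (adjusted p = 0.00207). AT4G18650 showed the same pattern, with 24.5, 32.1 and 47.1 in csn5-labelled light and 406, 306 and 308 in csn5-labelled dark and an interaction of -1.45 ± 0.38 (adjusted p = 0.00502). For AT2G15010 (-2.26 ± 0.36) and AT5G05250 (-2.21 ± 0.35) the WT differences of -0.92 and -0.92 were not called, and neither interaction passed the test (adjusted p = 0.0532 and 0.0565).

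A last set among the largest falls had its highest signals in dark replicates 2 and 3. The chloroplast-encoded gene rpoB, for a subunit of the plastid's own RNA polymerase, had 2399, 1025 and 1342 in csn5-labelled light and 3150.1, 8783 and 8946 in csn5-labelled dark. Its difference of -2.04 ± 0.61 had a wide error and an adjusted p of 0.0313. AT2G07722, a locus with no symbol, had 940.3, 508 and 916 in csn5-labelled light and 1886, 5100.2 and 4549 in csn5-labelled dark. The annotated pseudogene AT3G33066 had 259.6, 147 and 169.6 in csn5-labelled light and 439, 1656 and 1504 in csn5-labelled dark. AT2G07721 had the same shape, and in all 4 genes dark replicate 1 was far below the other dark arrays. Those other dark arrays are the ones with the highest GAPDH ratios of the csn5-labelled arrays. By the actin ratio the highest were dark replicate 3 and light replicate 1. In 4 of the 8 groups of the series, the array with the highest GAPDH ratio was also the highest for rpoB, and likewise for AT2G07721. For AT2G07722 and for AT3G33066 this held in 3 groups. With 3 arrays a group, some such matches arise without any link, so the counts decide nothing here, and a link was not tested. With the GAPDH ratio as a covariate, a fit added after the data were seen, the differences were -1.63 for rpoB, -1.74 for AT2G07722, -1.65 for AT2G07721 and -1.78 for AT3G33066, and all 4 remained called. The calls of all 4 were lost without any one of light replicate 2, dark replicate 2 and dark replicate 3, with differences of -1.97 to -1.78 for rpoB, -1.96 to -1.87 for AT2G07722, -1.95 to -1.73 for AT2G07721 and -2.39 to -1.87 for AT3G33066. Within those ranges, the calls of rpoB, AT2G07721 and AT3G33066 were also lost without light replicate 3, and that of AT3G33066 without light replicate 1. With no intensity trend, rpoB, AT2G07721 and AT3G33066 also lost their calls (adjusted p = 0.0688, 0.0564 and 0.0769 by limma).

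Light differences in csn5-labelled seedlings were nearly uncorrelated with those in WT. Over the 18751 probe sets the Pearson correlation of the log2 differences was 0.015, a description across probe sets, which share arrays and are not independent replicates. Of the 1777 probe sets called higher in WT light, 46 were also called higher in csn5-labelled light, 48 were called lower and 1683 (94.7%) were not called. Of the 1832 called lower in WT light, 74 were called lower in csn5-labelled light, 70 were called higher and 1688 (92.1%) were not called. Over all tested probe sets only 2.44% were called higher and 1.38% lower in csn5-labelled light. Most probe sets of any kind were thus not called there. The median csn5-labelled difference was -0.14 over the genes that rose in WT, whose WT median was 1.53, and -0.05 over those that fell in WT, whose WT median was -1.45. Seen from the csn5-labelled side, 342 of the 458 higher probe sets (74.7%) and 137 of the 259 lower ones (52.9%) were not called in WT. Over all tested probe sets 19.2% were called in WT and the rest were not. The test of the difference itself called 3906 probe sets (20.8%), of which 1990 were higher (10.6%) and 1916 lower (10.2%) in the csn5-labelled contrast than in the WT contrast. The WT light arrays were registered under another range of record numbers than the WT dark arrays, whereas the csn5-labelled light and dark arrays share a range. Record range and light therefore cannot be told apart in the WT contrast, nor in what the interaction takes from it. The GAPDH ratio of WT dark replicate 2 was 19.68, against 2.43 and 4.28 in the other WT dark arrays and 2.27, 2.38 and 2.38 in WT light. Without that array WT had 3271 calls and the interaction 3784.

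**Figure D3:**
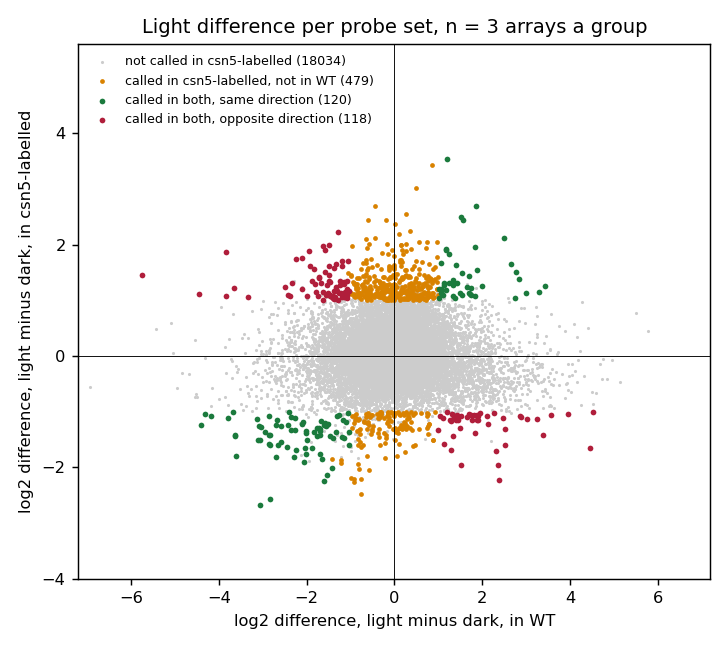
Log2 difference of light minus dark in csn5-labelled seedlings (vertical axis) against that in WT (horizontal axis), 1 point for each of 18751 probe sets, coloured by call. The cloud is wide along the WT axis and narrow along the csn5-labelled axis, and the 118 probe sets called in opposite directions lie in the upper left and lower right.

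Light moved 118 probe sets in opposite directions in csn5-labelled and WT seedlings, and the interaction was called for all 118. Of these, 70 were higher in csn5-labelled light and lower in WT light (0.373% of those tested), and 48 were lower in csn5-labelled light and higher in WT light (0.256%). The calls that went the same way in both genotypes numbered 120. The largest opposite change among named genes was in AT5G39520, a locus with no symbol. It had 884, 803 and 818 in csn5-labelled light and 322, 269 and 234 in csn5-labelled dark, against 36.6, 4.1 and 11.9 in WT light and 3726, 3889 and 3014 in WT dark. The WT light arrays were the lowest and the WT dark arrays the highest of these 4 groups, with csn5-labelled light above csn5-labelled dark. The differences were 1.45 ± 0.22 in csn5-labelled seedlings and -5.75 ± 0.22 in WT, and the interaction was 7.21 ± 0.32 (adjusted p = 8.22e-15). CHI, a chitinase that breaks down the chitin of fungal walls, had 6495, 6700.2 and 5628 in csn5-labelled light and 1587, 1954 and 1522 in csn5-labelled dark. WT had 99.2, 93.2 and 57.3 in light and 1864, 1518 and 2135 in dark, so the genotypes overlapped in dark and lay far apart in light. The differences were 1.87 ± 0.33 (adjusted p = 0.000424) in csn5-labelled seedlings and -3.83 ± 0.33 (adjusted p = 2.65e-10) in WT, and the interaction was 5.70 ± 0.46 (adjusted p = 3.16e-10).

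AT4G33150 encodes LKR/SDH, the bifunctional enzyme that begins lysine breakdown. Its signals were 1652, 1149.9 and 950.0 in csn5-labelled light and 591, 460.5 and 438 in csn5-labelled dark, against 543, 457 and 340.5 in WT light and 5880.1, 6010.5 and 6446 in WT dark. The highest level was in WT darkness, and the WT light arrays overlapped the csn5-labelled dark arrays. The csn5-labelled rise of 1.23 ± 0.30 (adjusted p = 0.00858) lost its call without light replicate 1 (1.01, adjusted p = 0.0674), and the WT difference was -3.65 ± 0.30. Loci without a symbol made up the rest of the largest opposite changes in this direction. AT1G65690 had 829.9, 833 and 829 in csn5-labelled light and 173, 193 and 150.4 in csn5-labelled dark, a rise of 1.99 ± 0.33 (adjusted p = 0.000276) against a WT difference of -1.48 ± 0.33. AT2G18690, AT5G39670 and AT4G30670 rose by 1.30 ± 0.22, 1.56 ± 0.28 and 1.21 ± 0.27 in csn5-labelled seedlings, and their WT differences were -2.33, -1.83 and -2.11. AT3G14280 rose by 1.09 ± 0.28 (adjusted p = 0.0131) against a WT difference of -2.41 ± 0.28, and its call was lost without light replicate 1 (0.95, adjusted p = 0.0768) or dark replicate 3 (0.96, adjusted p = 0.0808), after quantile normalization (0.94) and with an offset of 100 (0.96).

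In the other direction, AT4G21870 had 481, 421 and 285 in csn5-labelled light and 1026, 1116 and 1216 in csn5-labelled dark, against 4669, 5006 and 4003 in WT light and 305, 465 and 423 in WT dark. The csn5-labelled light arrays overlapped WT dark, and the csn5-labelled dark arrays lay between WT dark and WT light. The differences were -1.41 ± 0.20 (adjusted p = 5.7e-05) in csn5-labelled seedlings and 3.38 ± 0.20 (adjusted p = 4.06e-13) in WT, with an interaction of -4.79 ± 0.28. AT4G29030 had 20.3, 126 and 238 in csn5-labelled light and 711, 657 and 627 in csn5-labelled dark, against 1483, 1479 and 1409 in WT light and 212, 321 and 194 in WT dark. Its difference of -2.22 ± 0.35 (adjusted p = 0.00018) was the most negative among the named genes that rose in WT, and its csn5-labelled light arrays differed widely among themselves. AT2G10940 had 519, 1089 and 831 in csn5-labelled light and 2847, 2857 and 3951 in csn5-labelled dark, against 11646, 11779 and 13111 in WT light and 3797, 5196 and 3788 in WT dark. The csn5-labelled light arrays were the lowest, and the csn5-labelled dark arrays overlapped WT dark, with a csn5-labelled difference of -1.96 ± 0.23 (adjusted p = 5.77e-06) and an interaction of -3.48 ± 0.33 (adjusted p = 4.64e-09). Smaller falls were found in AT3G22210 (-1.60 ± 0.29), AT1G62500 (-1.70 ± 0.28) and AT2G29290 (-1.13 ± 0.21), whose WT differences were 2.51, 2.31 and 3.24. AT4G22490, AT1G14345 and AT1G21500 had differences of -1.12 ± 0.25, -1.09 ± 0.25 and -1.06 ± 0.26, and rose in WT by 3.02, 2.89 and 3.56. Each of these last falls lost its call in the csn5-labelled contrast without light replicate 1, at -0.86, -0.98 and -0.99. The call of AT1G21500 was also lost without light replicate 3 (-0.89) or dark replicate 3 (-0.87), with an offset of 100 (-0.92) and with the GAPDH ratio as a covariate (-0.94). AT2G29290 was under the size that is called with an offset of 100 (-0.93).

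**Figure D4:**
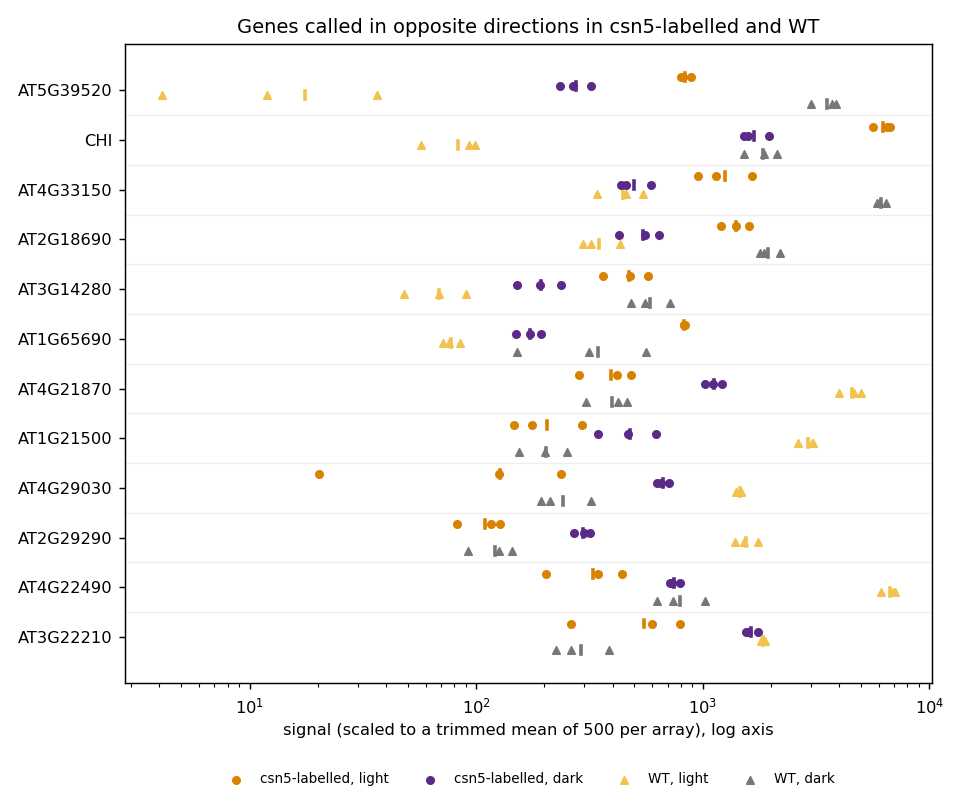
Signal per array, on a log axis, of 12 genes called in opposite directions in csn5-labelled and WT seedlings, with the 6 higher in csn5-labelled light in the upper rows; points are arrays, ticks are means, circles are csn5-labelled and triangles WT. For AT5G39520 WT light arrays lie at 4.1 to 36.6 and WT dark arrays at 3014 to 3889, whereas csn5-labelled light arrays lie above csn5-labelled dark arrays.

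A further 128 higher and 52 lower probe sets were called both in the csn5-labelled contrast and in the interaction while their WT difference was under 0.5 in size. AT5G51440 had 1057, 1240.0 and 969 in csn5-labelled light and 259, 148 and 199.98 in csn5-labelled dark, a rise of 2.19 ± 0.27 (adjusted p = 8.11e-06). WT had 94.1, 103 and 113 in light and 91.5, 116 and 72.6 in dark, and these overlapped. NERD, a protein needed for an RNA-directed form of DNA methylation, had 373, 437 and 367 in csn5-labelled light and 47.3, 93.8 and 132 in csn5-labelled dark, with a difference of 1.69 ± 0.29 (adjusted p = 0.00035) there and 0.17 ± 0.29 in WT. AT3G23170 and AT4G02170 rose by 1.90 ± 0.24 (adjusted p = 1.12e-05) and 1.83 ± 0.33 (adjusted p = 0.00068). AT2G20560 rose by 1.89 ± 0.40 (adjusted p = 0.00273), but its interaction of 1.62 ± 0.56 (adjusted p = 0.0325) lost its call without any one of 6 arrays, at 1.30 to 1.55: light replicate 2, dark replicate 2 and dark replicate 3 of csn5, and light replicate 1, dark replicate 1 and dark replicate 3 of WT. It was also lost after quantile normalization, with an offset of 16 and with no intensity trend (limma's adjusted p = 0.131, 0.105 and 0.0519). Among the genes that fell, AT3G56360 had 1187, 1132 and 1247 in csn5-labelled light and 3245, 2939 and 3184 in csn5-labelled dark, with 2127, 2383 and 2316 in WT light and 1929.7, 2221 and 2503 in WT dark, a difference of -1.36 ± 0.14 (adjusted p = 1.19e-06) and an interaction of -1.40 ± 0.21 (adjusted p = 5.7e-06). AT4G38660 (-1.61 ± 0.29), AT4G29020 (-1.47 ± 0.23), AT3G19030 (-1.46 ± 0.18) and AT1G06000 (-1.33 ± 0.19) fell with it. The interaction of AT3G19030 (-1.10 ± 0.25) dropped under the size that is called without csn5 light replicate 3 (-0.94) or WT dark replicate 1 (-0.93).

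The opposite case, a called change in WT and in the interaction with a csn5-labelled difference under 0.5 in size, held for 943 probe sets that rose and 880 that fell in WT. These genes reached that small difference at different levels. AT1G23130 had 4107, 4460.1 and 2739 in csn5-labelled light and 3336, 2313 and 2497 in csn5-labelled dark, against 6049.8, 6944 and 5721 in WT light and 58, 57.4 and 81.1 in WT dark, so both csn5-labelled groups lay well above WT dark. CaS, a thylakoid calcium sensor, had 1844, 2261 and 1652 in csn5-labelled light and 2822, 2628 and 2523 in csn5-labelled dark, between WT light (6542, 6762 and 7888) and WT dark (262, 427 and 361). AT3G16670, AT2G33850 and AT1G22690 instead overlapped or lay near WT dark in both csn5-labelled groups. AT3G16670 had 43.6, 10.7 and 25.7 in csn5-labelled light and 10.5, 90.4 and 83.1 in csn5-labelled dark, while WT had 5391, 3989.9 and 4208 in light and 69.3, 86.6 and 81.3 in dark. The WT rises of AT2G33850 and AT1G22690 were 4.74 ± 0.34 and 4.41 ± 0.31, against csn5-labelled differences of -0.06 ± 0.34 and 0.49 ± 0.31. Of the genes that fell in WT, AT4G07820, AT2G16005, AT4G11190 and ATPMEPCRD were below 160 in every csn5-labelled array. AT4G07820, for one, had 59, 44.1 and 32.9 in csn5-labelled light and 10.5, 112 and 28 in csn5-labelled dark, against 53.2, 45 and 10.8 in WT light and 2755, 2649 and 2788 in WT dark. The WT differences of AT2G16005, AT4G11190 and ATPMEPCRD were -4.85 ± 0.41, -4.69 ± 0.37 and -3.85 ± 0.40. AT1G05340 had 852, 758 and 755 in csn5-labelled light and 570.0, 656 and 664 in csn5-labelled dark, above WT light (353, 304 and 232) and below WT dark (4257, 5794 and 4055).

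Most of the nuclear genes of photosynthesis and chlorophyll synthesis that were matched by name rose in WT light. These lists need not hold every such gene measured. Of 3 antenna genes, 7 genes for nuclear-encoded subunits of the photosystems and electron transport, 3 Calvin cycle genes and 8 genes of tetrapyrrole and chlorophyll synthesis, 0 were called in either direction in csn5-labelled light, a count of 0 in 21 that is near the 3.82% called over all tested probe sets. At an unadjusted p under 0.05, 2, 4, 0 and 3 of them passed, limma being the test throughout, against 4620 of all 18751. In WT light, 2, 5, 3 and 7 of the same genes rose, in that order, and 0 fell, where 9.48% of all tested probe sets rose. The median csn5-labelled differences of these lists were -0.12, -0.43, -0.37 and -0.28, with a median of 0.02 over all tested probe sets. RCA, which activates the carbon-fixing enzyme rubisco, had 10560.4, 13493 and 10780.3 in csn5-labelled light and 17431, 16192 and 16271 in csn5-labelled dark, against 23856, 25716 and 27231 in WT light and 2869, 1017 and 2181 in WT dark. Both csn5-labelled groups lay well above WT darkness, and the light arrays all lay below the dark arrays, with a difference of -0.52 ± 0.36 (adjusted p = 0.397) that was not called. SBPASE, a Calvin cycle phosphatase, had 3167, 3758 and 2594 in csn5-labelled light and 4218, 3816 and 4173 in csn5-labelled dark, while WT had 10818, 10433 and 11517 in light and 539, 604 and 829.5 in dark. The interactions of RCA and SBPASE were -4.27 ± 0.51 (adjusted p = 2.22e-07) and -4.34 ± 0.31 (adjusted p = 4.74e-11), and that of PRK, the kinase that makes rubisco's substrate, was -2.55 ± 0.31 (adjusted p = 3.74e-07).

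PSAE-1, a photosystem I subunit, had 9667, 10956 and 9851 in csn5-labelled light and 12668, 13138 and 15684 in csn5-labelled dark, against 22161, 20268 and 23339 in WT light and 4918, 3714 and 4837 in WT dark. Its csn5-labelled difference was -0.44 ± 0.17 (adjusted p = 0.0921), and that of PSBY, a photosystem II subunit, was -0.59 ± 0.21 (adjusted p = 0.0708). PGRL1B, of cyclic electron flow, went the other way with 679.5, 631 and 845 in csn5-labelled light and 392, 366 and 263 in csn5-labelled dark, a difference of 0.98 ± 0.18 (adjusted p = 0.000762) that stayed just under the size that is called. Of the antenna genes, LHCB4.2 had -0.61 ± 0.22, LHCB4.1 -0.12 ± 0.21 and LHCB4.3 0.49 ± 0.23 in csn5-labelled seedlings, and all 3 interactions were called. In chlorophyll synthesis, CHLM, which methylates magnesium-protoporphyrin, had 1999.6, 2103 and 1446 in csn5-labelled light and 2963, 2699 and 2798 in csn5-labelled dark. This difference of -0.61 ± 0.17 (adjusted p = 0.0212) and the difference of HEMA2, a first-step enzyme of the pathway, at 0.90 ± 0.25 (adjusted p = 0.0201), both passed the adjusted p and missed the size. HEMB1, HEME1 and CHLI2, which act at further steps, had -0.43 ± 0.15, -0.32 ± 0.20 and -0.42 ± 0.26 in csn5-labelled seedlings, against 1.49 ± 0.15, 2.33 ± 0.20 and 2.47 ± 0.26 in WT. LIL3:2, a light-harvesting-like protein, had a difference of -0.75 ± 0.17 (adjusted p = 0.00407), and LIL3:1 had -0.48 ± 0.23 in csn5-labelled seedlings against 2.58 ± 0.23 in WT.

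**Figure D5:**
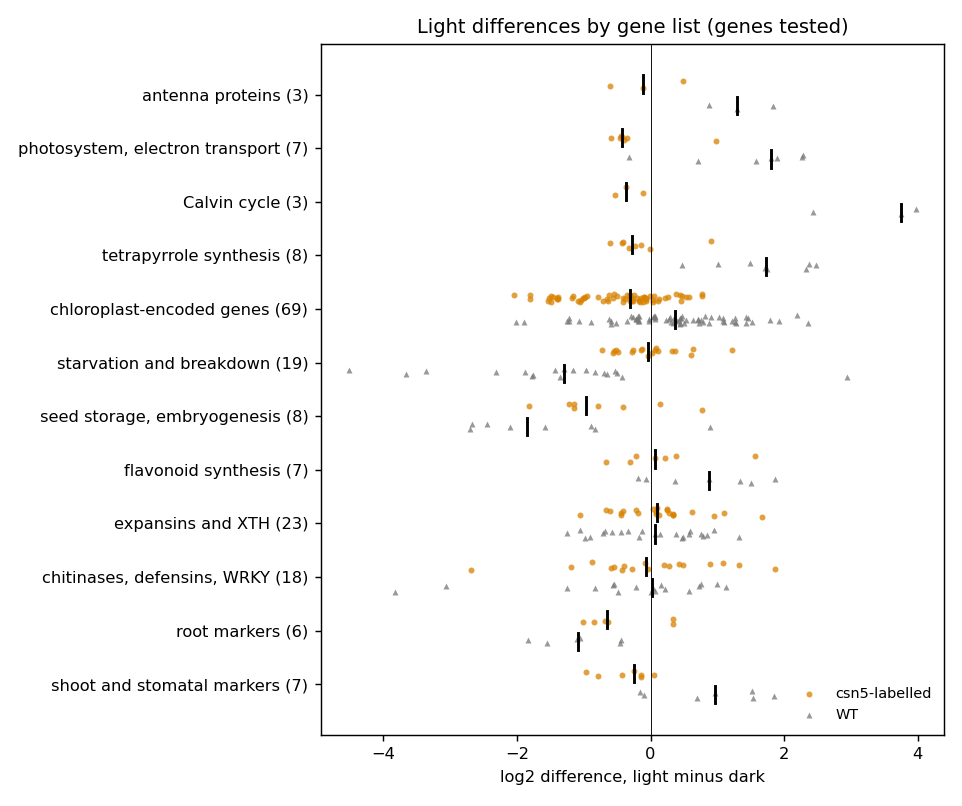
Log2 difference of light minus dark of each tested member of 12 gene lists, with csn5-labelled values as circles above WT values as triangles in each row, and vertical ticks at the medians. The csn5-labelled medians of the 4 nuclear photosynthesis lists lie between -0.43 and -0.12, and their WT medians between 1.29 and 3.75.

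Chloroplast-encoded genes were tested with 69 probe sets, of which 0 were called higher and 2 lower in csn5-labelled light, rpoB and atpI, a subunit of the plastid ATP synthase. Over all tested probe sets 1.38% were called lower. The median difference of the list was -0.31, and 54 of the 69 lay below 0, against 0.02 and 9054 of 18751 over all tested probe sets. In WT light 15 rose and 3 fell, with a median of 0.37, where 9.48% and 9.77% of all tested probe sets did. The signal of atpI was 1731, 739 and 964 in csn5-labelled light and 2321, 5311 and 4665 in csn5-labelled dark, a difference of -1.80 ± 0.53 (adjusted p = 0.0284). Summed over the list, the signal was 725489, 570463 and 571745 in csn5-labelled light and 578218, 758205 and 891372 in csn5-labelled dark, so the groups overlapped and dark replicates 2 and 3 stood highest. The number of falls moved with the arrays and the fit used. It was 0 without any one of csn5 light replicates 2 and 3 and dark replicates 2 and 3, 7 without csn5 dark replicate 1, 9 without csn4 light replicate 2, 11 without csn4 light replicate 3, and 7 with the GAPDH ratio as a covariate. It was 18 in a fit of only the arrays compared and 0 with no intensity trend. Under those 4 single exclusions atpI was at -1.72 to -1.54, with the covariate at -1.46, and with no intensity trend its adjusted p was 0.0636 by limma. The photosystem genes psaA and psbD had differences of -1.52 ± 0.52 (adjusted p = 0.0616) and -1.40 ± 0.51 (adjusted p = 0.077), and the electron-carrier gene petD had -1.81 ± 0.61 (adjusted p = 0.0559). For psaA, which rose in WT light by 2.20 ± 0.52, the interaction of -3.72 ± 0.74 (adjusted p = 0.00031) was called.

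The 19 genes of sugar starvation and of lipid and amino acid breakdown went the other way in WT. In WT light 11 of them fell and 1 rose, with a median of -1.30, where 9.77% and 9.48% of all tested probe sets did. In csn5-labelled light 0 fell and 1 rose, near the background of 1.38% and 2.44%. The gene that rose was AT4G33150, described above, and the median of the list was -0.03. The interaction was called higher for 15 and lower for 1, against 10.6% and 10.2% of all tested probe sets. ICL, the isocitrate lyase that turns seed oil into sugar, had 5285, 3571 and 5309 in csn5-labelled light and 8000.0, 8453 and 6866 in csn5-labelled dark. WT had 538, 459 and 267 in light and 11049.9, 9799 and 10205 in dark, so the csn5-labelled light arrays lay far above WT light. The csn5-labelled difference was -0.73 ± 0.27 (adjusted p = 0.0808) and the interaction 3.78 ± 0.38 (adjusted p = 1.27e-08). ATG8B, one of the proteins that coat autophagosomes, had 1138, 887 and 903 in csn5-labelled light and 1295, 1548 and 1473 in csn5-labelled dark, against 366, 328 and 334 in WT light and 3632, 5453 and 3182 in WT dark. Its csn5-labelled difference was -0.54 ± 0.19 (adjusted p = 0.0681), and AKINBETA1, a subunit of an energy-sensing kinase, had -0.49 ± 0.16 (adjusted p = 0.0408), under the size that is called.

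Of 8 genes of seed storage, oil bodies and embryogenesis, 4 fell in csn5-labelled light and 5 in WT light, and 0 rose in either. Over all tested probe sets 1.38% fell in csn5-labelled light and 9.77% in WT light. The list was chosen with earlier results of these data known, so its counts beside these shares are no test. The medians were -0.96 in csn5-labelled seedlings and -1.84 in WT. M17, a late embryogenesis protein, had 1745, 1102 and 1676 in csn5-labelled light and 7024, 7125 and 3055 in csn5-labelled dark, a difference of -1.82 ± 0.41 (adjusted p = 0.00441). Dark replicate 3 was the lowest of the dark arrays, still above every light array. AtLEA4-1 had 124, 165 and 121 in csn5-labelled light and 414, 483 and 280.1 in csn5-labelled dark, a difference of -1.23 ± 0.26 (adjusted p = 0.00264) beside -2.11 ± 0.26 in WT. LEA and LEA18, of the same protein class, had -1.14 ± 0.28 (adjusted p = 0.00812) and -1.14 ± 0.34 (adjusted p = 0.0305). The call of LEA was lost without dark replicate 2 (-0.95, adjusted p = 0.0711) and with an offset of 100 (-0.86), and that of LEA18 without any one of light replicates 1, 2 and 3 and dark replicates 1 and 2, at -1.25 to -0.90, and with no intensity trend (adjusted p = 0.0646 by limma).

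In flavonoid and anthocyanin synthesis, 1 of 7 genes rose in csn5-labelled light and 0 fell, while 3 rose in WT light, where 2.44% and 9.48% of all tested probe sets rose. The gene was DFR, the reductase that commits the pathway to anthocyanins. It had 2200.2, 1858 and 1910.2 in csn5-labelled light and 639, 685 and 603 in csn5-labelled dark, against 89.8, 196 and 126 in WT light and 12, 131 and 38.3 in WT dark. Light arrays were high and did not overlap dark arrays in csn5-labelled seedlings, and every csn5-labelled array exceeded every WT array. The differences were 1.56 ± 0.25 (adjusted p = 0.000205) in csn5-labelled seedlings and 0.87 ± 0.25 (adjusted p = 0.00728) in WT, and the interaction of 0.69 ± 0.35 (adjusted p = 0.166) did not pass. CHIL, a chalcone isomerase-like protein, and UGT78D2, a flavonoid glucosyltransferase, rose in WT by 1.34 ± 0.26 and 1.50 ± 0.22. Their csn5-labelled differences of -0.67 ± 0.26 and -0.30 ± 0.22 were not called, and both interactions were, at -2.01 ± 0.36 (adjusted p = 9.46e-05) and -1.80 ± 0.31 (adjusted p = 4.68e-05).

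Of 23 expansin and xyloglucan endotransglucosylase genes of the cell wall, 2 rose and 1 fell in csn5-labelled light, where 2.44% and 1.38% of all tested probe sets did, and the other 20 were not called. In WT 1 rose and 1 fell, where 9.48% and 9.77% of all tested probe sets did. XTH18, which cuts and rejoins wall xyloglucan, had 1786, 1479 and 1178 in csn5-labelled light and 408, 453 and 413 in csn5-labelled dark, a rise of 1.67 ± 0.23 (adjusted p = 3.21e-05), while WT had 793, 695 and 713 in light and 1666, 1046 and 1056 in dark. The interaction was 2.38 ± 0.32 (adjusted p = 1.65e-06). EXLA1, an expansin-like protein, rose by 1.10 ± 0.21 (adjusted p = 0.00136), and XTH16 had a difference of -1.06 ± 0.20 (adjusted p = 0.0013). XTH16 belonged to the genes that went the opposite way in WT, with a rise of 1.32 ± 0.20. Its csn5-labelled difference was under the size that is called without light replicate 3 (-0.95, adjusted p = 0.0124) or dark replicate 3 (-0.90, adjusted p = 0.0179), and just under it with an offset of 100 (-0.9953) or the GAPDH covariate (-0.9991). Of 13 auxin response genes, 1 rose in csn5-labelled light and 0 fell, against the same csn5-labelled shares of 2.44% and 1.38%. GH3.3, which joins auxin to amino acids, had 720.4, 892 and 577 in csn5-labelled light and 262, 235 and 445 in csn5-labelled dark, a rise of 1.12 ± 0.31 (adjusted p = 0.0175). WT rose by 3.01 ± 0.31, and the interaction was -1.88 ± 0.43 (adjusted p = 0.00139). The csn5-labelled call was lost without any one of light replicates 1 and 2 and dark replicates 1 and 2, at 0.97 to 1.12.

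Defence genes gave 3 rises and 1 fall among 18 chitinase, defensin and WRKY genes in csn5-labelled light, and 1 rise and 3 falls in WT light. Over all tested probe sets the shares were 2.44% and 1.38% in csn5-labelled light, and 9.48% and 9.77% in WT light, near the WT counts of the list. Besides CHI and LCR67, the called members were the WRKY transcription factors ZAP1 (also named WRKY1) and WRKY6. ZAP1 had 561, 561 and 600.2 in csn5-labelled light and 337, 163 and 140.1 in csn5-labelled dark, a rise of 1.32 ± 0.33 (adjusted p = 0.0107), and it rose in WT by 1.14 ± 0.33. WRKY6 had 711, 538 and 816 in csn5-labelled light and 208, 376 and 324 in csn5-labelled dark, a rise of 1.08 ± 0.28 (adjusted p = 0.0123), with a WT difference of -0.56 ± 0.28 and an interaction of 1.63 ± 0.39 (adjusted p = 0.00212). WRKY53, a further member of that family, had 0.90 ± 0.23 (adjusted p = 0.0136), under the size that is called, and an interaction of 1.44 ± 0.33 (adjusted p = 0.00146). The call of ZAP1 was lost without dark replicate 2 (1.20, adjusted p = 0.0588) or dark replicate 3 (1.12, adjusted p = 0.0789), and that of WRKY6 without light replicate 3 (0.95, adjusted p = 0.0634) or dark replicate 1 (0.87, adjusted p = 0.0722), after quantile normalization (0.97) and with an offset of 100 (0.98). The heat shock list was matched by name and need not hold every such gene measured. Of its 3 tested genes, 1 rose (2.44% over all tested probe sets), AT5G48570, the prolyl isomerase ROF2. It had 519.7, 877 and 374 in csn5-labelled light and 113, 99.2 and 158 in csn5-labelled dark, a rise of 1.82 ± 0.27 (adjusted p = 8.96e-05) beside 1.25 ± 0.27 in WT. The co-chaperone-like BOB1 had 0.64 ± 0.14 (adjusted p = 0.00487) and HSA32 0.35 ± 0.27, and neither was called.

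For the other lists with more than 1 tested gene, 0 members were called in csn5-labelled light. This held for 11 glutathione transferases, 16 cell cycle and histone genes, 14 genes of the proteasome and cullin ligases, 6 class III peroxidases, 14 genes of nitrate and sulfate assimilation and transport, 4 photoreceptor and photomorphogenesis genes, 2 light-harvesting-like genes and 2 jasmonate and ethylene genes. At an unadjusted p under 0.05 limma gave 3, 3, 7, 2, 4, 1, 2 and 0 of them. With 3.82% of all tested probe sets called, and 4620 of 18751 at an unadjusted p under 0.05, counts of 0 in lists of this size are near the background. GSTU22, a glutathione transferase, was called in the interaction and not in csn5-labelled light. It had 135, 81.1 and 99.2 in csn5-labelled light and 244, 144 and 206 in csn5-labelled dark, against 151, 166 and 154 in WT light and 1644, 1977 and 2556 in WT dark, with an interaction of 2.65 ± 0.28 (adjusted p = 3.74e-08). The clock gene GI had a csn5-labelled difference of 0.27 ± 0.21 (adjusted p = 0.449) and a WT difference of -1.83 ± 0.21. UBC30, a ubiquitin-conjugating enzyme, had 3303, 3404 and 3336 in csn5-labelled light and 2144, 1939 and 2642 in csn5-labelled dark, without overlap, and its difference of 0.58 ± 0.17 (adjusted p = 0.0302) passed the adjusted p and missed the size. The mitotic kinase AUR2 had 243, 295 and 299 in csn5-labelled light and 372, 430.1 and 548 in csn5-labelled dark, a difference of -0.59 ± 0.18 (adjusted p = 0.0379), with an interaction of -1.21 ± 0.26 (adjusted p = 0.000722). AT1G59740, from the list of nitrate and sulfate genes, had -0.84 ± 0.20 (adjusted p = 0.00732) in csn5-labelled seedlings and rose by 1.15 ± 0.20 in WT, with an interaction of -1.99 ± 0.28 (adjusted p = 3.73e-06). CUL4, a cullin and thus a member of the complex's substrate class, had 2994, 2382 and 1916 in csn5-labelled light and 1711, 1616 and 1787 in csn5-labelled dark, a difference of 0.48 ± 0.18 (adjusted p = 0.0961). HYH, a relative of the light-response factor HY5, had -0.35 ± 0.23 in csn5-labelled seedlings and 0.81 ± 0.23 in WT, with an interaction of -1.17 ± 0.33 (adjusted p = 0.00906). The aquaporin list held only AQI, an aquaporin-interacting protein, at 0.14 ± 0.17.

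Of the markers of seedling organs, 0 were called in csn5-labelled light, which for so few genes is near the 3.82% called over all tested probe sets. The summed signal of 6 root markers ran from 6320 to 7441 in csn5-labelled light and from 9120 to 12838 in csn5-labelled dark, against 30590 to 31789 in WT light and 57401 to 66023 in WT dark. The summed signal of 7 shoot, leaf and stomatal markers ran from 1187 to 1508 in csn5-labelled light and from 1762 to 2289 in csn5-labelled dark, against 3554 to 3741 in WT light and 1547 to 1741 in WT dark. The sums of the csn5-labelled light arrays thus lay below those of the dark arrays for both sets, which was not tested. Singly, 2 of 6 root and 2 of 7 shoot markers had all light arrays below all dark arrays, against 16.6% of all tested probe sets. At an unadjusted p under 0.05 by limma 4 and 2 of them passed, against 4620 of all 18751. The root lectin JAL22 had 38.6, 58.7 and 121 in csn5-labelled light and 171, 403 and 83.5 in csn5-labelled dark, against 3148, 3449.7 and 3218 in WT light and 11118, 12214 and 12067 in WT dark. PYK10, a root glucosidase, had -0.68 ± 0.17 (adjusted p = 0.0128), the lectin JAL34 -0.84 ± 0.20 (adjusted p = 0.00618), and the leaf factor YAB3 -0.96 ± 0.29 (adjusted p = 0.0302). STOMAGEN, which promotes stomata, had 408, 522 and 430.5 in csn5-labelled light and 655, 846 and 969 in csn5-labelled dark, against 1768, 1815 and 1937 in WT light and 466, 715 and 651 in WT dark. Of the root markers EXPA7, an expansin of root hairs, was below 100 in every csn5-labelled array, and of the shoot markers TRY, a factor of leaf hair patterning, was. The part of organ proportions in the light differences was not tested.

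The light differences of the csn5-labelled line were correlated with those of the other signalosome lines. Over all tested probe sets the Pearson correlation with the csn5-labelled differences was 0.556 for csn3 and 0.559 for csn4, whose arrays are separate from the csn5-labelled ones, and 0.015 for WT. Of the 717 probe sets called in csn5-labelled light, 666 (92.9%) had the same sign in csn3, 675 (94.1%) in csn4 and 379 (52.9%) in WT. Over all tested probe sets those shares were 68%, 67.6% and 51.1%. The 717 were chosen by the size of their csn5-labelled difference, whereas all tested probe sets include many with small differences, so these shares are not like for like. Among the 118 probe sets opposite to WT, the sign in csn3 was that of the csn5-labelled line for 100 and in csn4 for 107. Far fewer of them were called in that direction, 4 in csn3 and 20 in csn4. Over all tested probe sets 0.880% were called in csn3 and 3.49% in csn4. Calls in the same direction in all 3 lines numbered 46 higher and 17 lower of 18751 tested. The csn3 line, with the fewest calls, had 103 higher and 62 lower in all. CML38 rose by 2.20 ± 0.30 in csn3 and 3.38 ± 0.30 in csn4, AT3G10040 by 2.10 ± 0.26 and 2.41 ± 0.26, and CHI by 1.39 ± 0.33 and 1.89 ± 0.33. DFR had differences of 1.38 ± 0.25 in csn3 and 1.45 ± 0.25 in csn4, and LCR67 of -1.54 ± 0.40 and -1.54 ± 0.40. The csn4 light arrays, like those of WT, stand in another record range than the csn4 dark arrays, and csn4 light replicate 2 had a GAPDH ratio of 130.1. The csn3 contrast lies within 1 range, and its GAPDH ratios were 8.87, 6.82 and 8.77 in light and 24.59, 19.34 and 7.74 in dark.

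The direct test of csn5-labelled against csn3 light differences called 5 probe sets (0.0267%), 2 higher (0.0107%) and 3 lower (0.0160%) in csn5-labelled seedlings, with 1277 at an unadjusted p under 0.05. Their identities were looked up after the values were seen, except for AT5G42200 and AT1G06000. AT5G42200 rose by 2.43 ± 0.21 in csn5-labelled light and had 0.74 ± 0.21 in csn3. AT4G26460 had 636, 494 and 486 in csn5-labelled light and 198, 127 and 119.9 in csn5-labelled dark, a rise of 1.58 ± 0.30 beside -0.72 ± 0.30 in csn3. AT3G07350 and AT1G06000 had -1.63 ± 0.20 and -1.33 ± 0.19 in csn5-labelled seedlings, with 0.03 ± 0.20 and 0.23 ± 0.19 in csn3. The remaining probe set, which has no gene in the platform table, had 1399, 2236 and 1642 in csn5-labelled light and 5148, 5310.1 and 6259.6 in csn5-labelled dark, against 15694, 16928 and 17977 in WT light and 698, 717 and 747 in WT dark. Its difference of -1.66 ± 0.20 stood beside 0.02 ± 0.20 in csn3 and a WT rise of 4.45 ± 0.20. The number of calls in this test ran from 0 to 38 when single arrays were left out. It was 0 without any one csn5-labelled array other than light replicate 2 (20), 0 without any one csn3 array other than light replicate 3 (1) and dark replicate 3 (38), 8 without WT dark replicate 2, and 9, 19 and 14 without csn4 light replicates 1, 2 and 3.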

How the data were processed

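RNA of seedlings was hybridised to 24 one-colour Affymetrix ATH1 arrays, 3 for each of 8 groups. The values are intensity signals per probe set, deposited on a linear scale and made by the authors with MAS5, per the submitters' processing notes; version, scaling target and filters are not given in the sources used here. The number of arrays limits the precision. Arrays were brought to a common mean of 500, computed without the top and bottom 2% of values, and 50 was added before log2. Of 22810 probe sets, 64 controls were left out, and 18751 of the other 22746 reached a signal of 100 in 3 or more arrays. limma 3.58.1 in R 4.3.3 (lmFit, eBayes with an intensity trend) was fitted to all 24 arrays with 1 mean per group, with Benjamini-Hochberg adjustment. The steps were tested on simulated data. The platform table names 1 gene for 13513 probe sets, several for 503 and none for 8730, and 13436 were matched to TAIR10.1 gene names. The unnamed probe sets were counted but not described.

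Groups came from the titles, except that the light growth of the csn4 light arrays came from their descriptions. The csn3 dark array called replicate 3 here has a title that repeats replicate 1. Named genes had to come from probe sets with 1 gene. They were the 12 highest and 12 lowest csn5-labelled differences among called probe sets with no overlap of light and dark arrays, up to 8 in each direction opposite to WT by interaction, up to 5 each of those called in 1 genotype and the interaction with a difference under 0.5 in the other, and up to 5 of each list by adjusted p. The members and lists were chosen with earlier results of these data known, so list counts beside the background are descriptions and no tests. Lists were matched to the names of genes, so a list need not hold every measured gene of its kind. The name patterns for plastid ribosomal, cytosolic ribosomal and lipid-transfer proteins matched 0 genes, which does not mean that the arrays lack such genes. Where GEO gives light and dark arrays the same replicate number, their deviations from the group means had correlations of 0.046, -0.088 and 0.049 in csn5 and 0.003, -0.054 and -0.138 in WT, so the numbers were not taken to pair them. Alternatives covered normalization, offset, filter, fit, threshold and single arrays left out. Sequences were not analysed here.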

Additional observations from a re-analysis of the deposited data

Results flagged for a closer look

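The light difference of the csn5-labelled seedlings and that of WT differed, by limma's test of the interaction, for 3906 probe sets and for 77 of the genes named above, 31 with an interaction above 0 and 46 below 0. Interactions are the csn5-labelled minus the WT difference of light minus dark, on the log2(signal + 50) scale. They carry the limits that WT light and WT dark arrays lie in different record-number ranges and that WT dark replicate 2 had a GAPDH ratio of 19.68. No cause was tested.

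Among the genes with the largest rises in csn5-labelled light the interaction was 3.47 for AT1G65690, 3.02 for AT5G42200, 2.58 for AT1G44130, 2.57 for AT5G10040, 2.33 for CML38, 2.09 for AT5G51440, 1.96 for AT3G23170 and 1.62 for AT2G20560. Among those with the largest falls it was -4.61 for AT4G29030, -3.48 for AT2G10940, -1.71 for AT1G47400 and -1.45 for AT4G18650. These genes were chosen by their csn5-labelled differences, so the sign of their interactions follows in part from the choice.

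Among the genes called in opposite directions, the interaction was 7.21 for AT5G39520, 5.70 for CHI, 4.88 for AT4G33150, 3.64 for AT2G18690, 3.51 for AT3G14280, 3.39 for AT5G39670 and 3.32 for AT4G30670, and on the other side -4.79 for AT4G21870, -4.62 for AT1G21500, -4.37 for AT2G29290, -4.15 for AT4G22490, -4.11 for AT3G22210, -4.01 for AT1G62500 and -3.99 for AT1G14345. Both sets were chosen by it.

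Genes called in csn5-labelled light with a small WT difference had -2.03 for AT4G38660, 1.98 for AT4G02170, 1.52 for NERD, -1.40 for AT3G56360, -1.35 for AT1G06000, -1.29 for AT4G29020 and -1.10 for AT3G19030. Genes called in WT with a small csn5-labelled difference had 5.10 for AT4G07820, 4.54 for AT2G16005, 4.37 for AT4G11190, 4.08 for AT1G05340 and 4.01 for ATPMEPCRD where WT fell, and -5.60 for AT3G16670, -5.32 for AT1G23130, -4.80 for AT2G33850, -4.64 for CaS and -3.92 for AT1G22690 where WT rose.

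Of the genes taken from lists by their adjusted p in csn5-labelled light, those of photosynthesis, chlorophyll and the chloroplast genome that were called in the interaction all lay below 0: -4.34 for SBPASE, -4.27 for RCA, -3.72 for psaA, -3.06 for LIL3:1, -2.89 for CHLI2, -2.72 for PSAE-1, -2.65 for HEME1, -2.55 for PRK, -2.49 for PSBY, -2.21 for psbD, -1.92 for HEMB1, -1.90 for LHCB4.2, -1.62 for CHLM, -1.34 for LHCB4.3, -1.22 for LIL3:2 and -1.0 for LHCB4.1. Further list genes below 0 had -2.39 for XTH16, -2.32 for STOMAGEN, -2.01 for CHIL, -1.99 for AT1G59740, -1.88 for GH3.3, -1.80 for UGT78D2, -1.66 for YAB3, -1.21 for AUR2 and -1.17 for HYH. List genes above 0 had 3.78 for ICL, 2.82 for ATG8B, 2.65 for GSTU22, 2.38 for XTH18, 2.11 for GI, 1.63 for WRKY6, 1.53 for LEA18, 1.44 for WRKY53 and 1.18 for UBC30.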

How the results depend on the processing

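Over 37 alternatives, the 222 tested values of the named genes gave 8179 comparisons with the values above, of which 136 lost a call and 66 gained one. A change of sign was counted only for values called in either fit, and there were 0. Calls at an adjusted p alone, with no minimum size, numbered 1955 in csn5, 6526 in WT, 342 in csn3, 1768 in csn4 and 570 opposite to WT. A test against a log2 difference of 1 (limma's treat) left 9 in csn5, 1241 in WT, 1122 in the interaction, 2 in csn3, 8 in csn4, 0 between csn5 and csn3, and 0 opposite to WT, so most calls in csn5 are not shown to exceed that size. With an offset of 100 before log2, 65 were opposite to WT and csn4 had 373 calls. A fit of only the arrays compared gave 107 calls in csn3, 224 in csn4 and 15 between csn5 and csn3. That last count was 2 after quantile normalization, 9 with a filter of 200, 0 with no intensity trend and 34 with the GAPDH ratio as a covariate. Leaving out single arrays gave 527 to 836 calls in csn5, 88 to 146 opposite to WT, 76 to 414 in csn3, 567 to 1106 in csn4 and 0 to 38 between csn5 and csn3. After quantile normalization 54.2% of the csn5 calls were higher in light, against 63.9% above. The cause of these moves was not tested. The replicate block, used although the numbers do not pair the arrays, gave 851 calls in csn5, 3667 in WT, 4291 in the interaction, 128 opposite to WT and 14 falls among the chloroplast-encoded genes, against 2 above. A description of promoter motifs was not run, as no promoter sequences were used here. A choice among several probe sets of a list gene applied to 0 genes.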
